A study of Mus musculus with 78 samples.

Results

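RNase P and RNase MRP are related RNA-protein enzymes, and 10 genes for their protein subunits were followed here through the loss of the transcription factor ZFP143 in mouse embryonic stem cells. The genes were Rpp14, Rpp21, Rpp25, Rpp30, Rpp38, Rpp40, Pop1, Pop4, Pop5 and Pop7, taken as a named list from the 55401 genes of each count table. All 10 were present and all 10 passed the low-count filter in each of the 3 tables. Rpp30 had been picked out from these same TT-seq and RNA-seq time course libraries, so its values there are given as a description without a test, and the peaks at the promoters, which belong to how the genes were chosen, are described in the same way.

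RNase P removes the 5′ leader of precursor tRNAs, and RNase MRP cuts the precursor of ribosomal RNA. Each holds its own RNA subunit, Rpph1 in RNase P and Rmrp in RNase MRP, and the enzymes share most of their protein subunits. Both work mainly in the nucleus and nucleolus, and they are needed in every growing cell because tRNA and ribosome supply depend on them.

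The cells were E14TG2a embryonic stem cells of the genotype ZFP143-FKBP, knock-in clones in which both endogenous alleles carry the FKBP degron at the C-terminus, together with an HA tag and GFP. All groups, DMSO controls included, carried this allele. The degrader dTAG-V1 at 500 nM removes the fusion protein, and DMSO was the vehicle. TT-seq, which sequences RNA labelled with 4-thiouridine during a short pulse and so reports nascent transcripts, covered DMSO and 2, 6 and 24 h of dTAG. An RNA-seq time course covered DMSO and 24, 48 and 72 h of dTAG, all in 2i/LIF medium, which keeps the cells pluripotent. In a separate RNA-seq experiment, cells had DMSO or dTAG for 24 h and were collected, or were then washed and kept for a further 24 h with all-trans retinoic acid (RA) in N2B27 differentiation medium with DMSO or dTAG continued. The RA groups therefore differ from the others in medium and in hours of culture as well as in RA, and the dTAG RA libraries had 48 h of depletion against 24 h. Each of the 4 groups of a table had 2 libraries, 24 libraries in all of the 78 samples of the series. The study's methods call the 2 libraries biological replicates, without saying how the cultures were kept apart, and p-values measure the spread between these libraries.

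Totals of counted reads were 9721568 to 16532077 per library in TT-seq, 10261851 to 15316700 in the RNA-seq time course and 13890761 to 27089033 in the RA table. The spread between replicates, as the common biological coefficient of variation, was 17.2%, 3.65% and 5.92% in the same order. Zfp143 transcript does not check the loss of a protein that is degraded after translation, and it was higher under dTAG in every contrast with DMSO, by 1.09 to 1.38 on the log2 scale. All 9 pluripotency markers had counts in every group. Their summed level was 7010 to 7220 CPM (counts scaled to the effective library size, TMM) in DMSO and 4520 to 4580 CPM at 72 h of the RNA-seq time course, against 7530 to 7660 CPM in DMSO and 1380 to 1960 CPM in DMSO RA of the RA table. The 7 RA response genes summed to 8.77 to 10.1 CPM in DMSO and 1500 to 1770 CPM in DMSO RA. The 6 fibroblast markers summed to at most 26.2 CPM, with Dcn at 0 in every group, and the 5 primitive endoderm markers to at most 50.2 CPM. Fewer cells of a type and less RNA per cell cannot be told apart in these bulk libraries.

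ZFP143 peaks lay at the promoters of Rpp30, Rpp40, Rpp21 and Rpp38, which is 4 of the 10 genes, against 9.64% of 21897 protein-coding genes. A peak was assigned where it overlapped 2000 bp upstream to 1000 bp downstream of an annotated start and its centre lay within 2000 bp of that start. At Rpp30, whose protein belongs to the catalytic core of the enzymes together with Pop5, enrichment over input was 127-fold, rank 48 of 3189 peaks, with the summit 11 bp upstream of the start. At Rpp40, which encodes a partner of the Rpp14 subunit, it was 78.4-fold, rank 255, with the summit 256 bp downstream. At Rpp21, whose protein pairs with Pop4 and is regarded as particular to RNase P, it was 41.4-fold, rank 879, with the summit 45 bp upstream. Rpp38, a subunit that binds kink-turn RNA, had a weak peak of 7.51-fold, rank 2737, its summit 92 bp downstream, and it dropped out when an enrichment of at least 10 was required, which left 3 genes. The median over all peaks was 20.8-fold. The peak list was a single one, called against input, and the sources used here do not say from which condition.

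**Figure D1:**
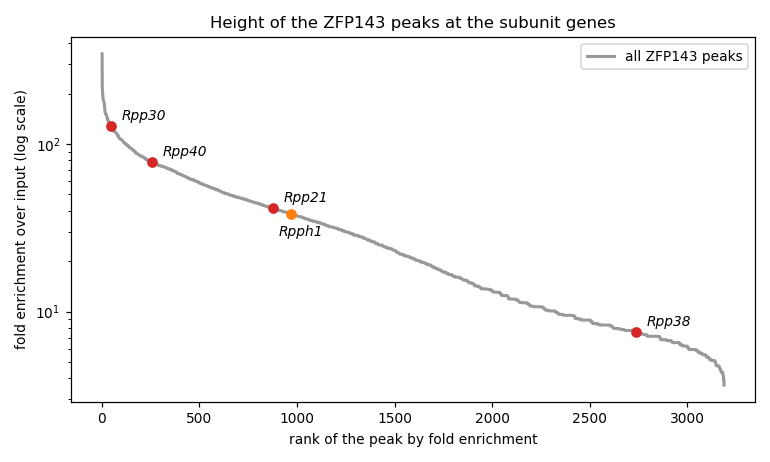
Fold enrichment over input of all 3189 ZFP143 peaks (vertical log axis) by rank (horizontal axis), with the peaks at Rpp30, Rpp40, Rpp21, Rpp38 and the RNA subunit gene Rpph1 marked. Rpp30 and Rpp40 sit among the strong peaks, at 127-fold and 78.4-fold, and Rpp38 lies low on the curve at 7.51-fold.

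The sequences under these peaks are shown because 3 of the 4 hold letters of the ZFP143 recognition element, the SBS motif, here searched on both strands as a core, CCCANNATGC, and as an extended form, ACTACANNNCCCA. The sets overlap, since the final letters of the extended form are the first letters of the core. All are given 5′ to 3′ on the gene's strand of GRCm38/mm10, with core or extended letters in capitals. The Rpp30 sequence, chr19:36083605-36083715 on the plus strand, is intergenic and ends at the base before the start. The Rpp40 sequence, chr13:35905972-35906172 on the minus strand, lies in the first intron and also in an exon of the antisense lincRNA Gm48746. The Rpp21 sequence, chr17:36257892-36257921 on the minus strand, is upstream of the start nearest to the peak and inside the 5′ untranslated exon of a longer transcript.
Rpp30: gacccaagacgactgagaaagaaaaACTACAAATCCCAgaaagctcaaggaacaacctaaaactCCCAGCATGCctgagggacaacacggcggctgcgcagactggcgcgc
Rpp40: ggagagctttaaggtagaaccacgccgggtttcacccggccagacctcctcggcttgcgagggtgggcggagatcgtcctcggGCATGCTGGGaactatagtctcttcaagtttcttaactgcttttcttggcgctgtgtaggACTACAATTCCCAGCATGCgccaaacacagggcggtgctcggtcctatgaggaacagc
Rpp21: ccctcccgcACTACAGTTCCCAgcagacgt

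Rpp30 held the extended letters 80 bp upstream of its start and, apart from them, the core letters 42 bp upstream. Rpp40 held both forms run together as 1 stretch, the extended letters 305 bp and the core 313 bp downstream of the start, and a further core on the opposite strand 244 bp downstream. Rpp21 held the extended letters 50 bp upstream and no core. No core or extended letters were found within 100 bp of the summit of the Rpp38 peak, nor a core with 1 mismatch. Over the 201 bp around the summits of all peaks, 22.7% held the core and 29.1% the extended form, against 1.88% and 1.69% of 32851 RefSeq promoters of 300 bp (GRCm38). Of the 8 genes with an entry in that promoter table, Rpp30 alone held either form in its promoter window, since the letters of Rpp40 lie beyond it. A match describes letters and is not evidence of a bound site.

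**Figure D2:**
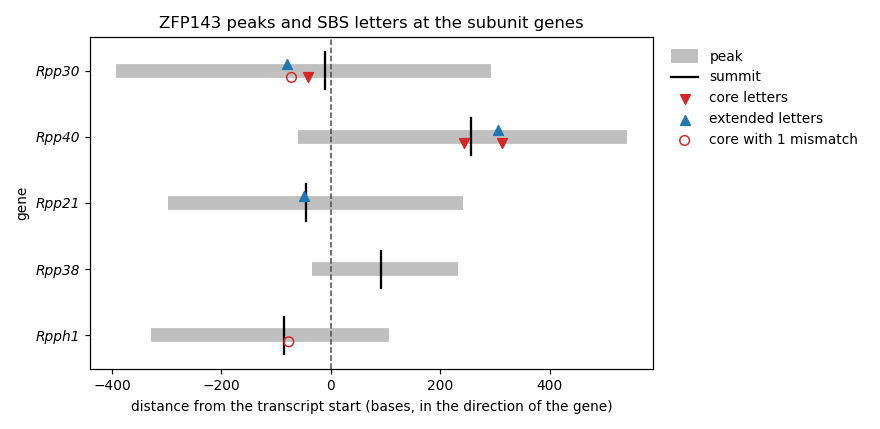
Position of each ZFP143 peak (bar), its summit and the SBS letters found around it, in bases from the annotated start of Rpp30, Rpp40, Rpp21, Rpp38 and Rpph1. The Rpp30 letters lie upstream of both the summit and the start, and those of Rpp40 lie downstream of the start in the first intron.

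The other 6 genes had no assigned peak. The nearest peak centre lay 28372 bp from Rpp14, 32555 bp from Pop5, 48741 bp from Rpp25, 51880 bp from Pop1, 152509 bp from Pop7 and 251742 bp from Pop4. Of the peaks of CTCF, an architectural protein of chromatin, 1 had its centre 149 bp from Rpp14, 210 bp from Pop5, 215 bp from Rpp21 and 435 bp from Pop7. Rpp30, Rpp40 and Rpp38 had no CTCF peak centre within 2000 bp.

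In the DMSO libraries of the RNA-seq time course, compared per kilobase of exon, the level was greatest for Rpp25, a subunit that with Pop7 binds the RNA subunit, at 95.1 and 92.1 CPM per kb. Pop1, the large scaffold subunit, followed with 23.4 and 23.9 CPM per kb, then Pop4 with 17.7 and 19.1. Rpp30 with 7.34 and 7.59 and Rpp40 with 6.00 and 6.25 CPM per kb were the lowest. Between Pop4 and Rpp30 came, by their means, Pop5, Rpp14, Rpp21, Rpp38 and Pop7, whose library values overlapped with those of a neighbour in the order.

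Nascent RNA of Rpp30 was far lower within 2 h of dTAG. The 2 DMSO libraries read 42.6 and 53.9 CPM, against 3.43 and 3.92 CPM at 2 h, 3.66 and 4.13 CPM at 6 h and 6.30 and 6.99 CPM at 24 h. The treated libraries were all below both DMSO libraries, and the 24 h values were above those of 2 and 6 h. The log2 changes were -3.71, -3.63 and -2.86 in time order. These contrasts share their DMSO libraries, as do those of the other tables, so their values stand side by side and are not independent.

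Beside Rpp30, 2 of the other 9 genes, Rpp40 and Pop1, were called lower in TT-seq at each time and none was called higher. A call here is a Benjamini-Hochberg adjusted p under 0.05 in edgeR's quasi-likelihood test with a log2 change beyond 0.5. Of all 17870 tested genes, 2.43% were called lower after 2 h, 2.83% after 6 h and 4.09% after 24 h. The shares called higher were 0.168%, 0.397% and 2.02% in the same order. The median log2 change of the 9 genes was -0.38, -0.36 and -0.22, beside 0.01 over all tested genes at each time. At an unadjusted edgeR p under 0.05, 3 of the 9 were lower and 0 higher at each time, and DESeq2 called none higher either.

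Rpp40 read 18.3 and 22.9 CPM in DMSO, 9.32 and 9.04 CPM at 2 h, 9.35 and 9.01 CPM at 6 h and 12.0 and 10.1 CPM at 24 h. All 6 treated libraries were below both DMSO libraries. The log2 changes were -1.17 ± 0.20 (SE, edgeR adjusted p = 0.0169), -1.17 ± 0.20 (adjusted p = 0.0170) and -0.90 ± 0.20 (adjusted p = 0.0348). Pop1, whose nearest ZFP143 peak centre lay 51880 bp away, read 90.3 and 108 CPM in DMSO, 50.9 and 55.1 CPM at 2 h, 58.7 and 62.1 CPM at 6 h and 51.5 and 58.7 CPM at 24 h. Its groups did not overlap with DMSO either, with log2 changes of -0.91 ± 0.14 (edgeR adjusted p = 0.00969), -0.72 ± 0.14 (adjusted p = 0.0273) and -0.85 ± 0.14 (adjusted p = 0.00965). These calls depended on single libraries. At 2 and 6 h neither gene was called without DMSO replicate 2 or without either treated library, with log2 changes of -1.33 to -0.98 for Rpp40 at 2 h and -0.86 to -0.57 for Pop1 at 6 h over the left-out libraries. At 24 h Rpp40 was called in none of the fits that left out 1 of the 4 libraries (adjusted p = 0.0544 to 0.159) and Pop1 was lost without 24 h replicate 1 (adjusted p = 0.0653).

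Rpp21 read 12.3 and 9.91 CPM in DMSO and 5.80 and 6.00 CPM at 24 h, where its log2 change was -0.91 ± 0.24 (edgeR adjusted p = 0.0617). With the replicate number as a block, a number that the TT-seq libraries share and along which they deviated together, it was -0.90 ± 0.21 (edgeR adjusted p = 0.0230) and called lower, when 6.79% of all tested genes were. It was also called lower with no filter on counts. At 2 h it read 6.38 and 6.75 CPM and at 6 h 7.41 and 5.54 CPM, all below DMSO and not called. Rpp38, with the weak peak, read 14.9 and 15.0 CPM in DMSO, 10.4 and 12.0 CPM at 2 h and 14.9 and 17.5 CPM at 24 h, and was not called. The remaining genes Rpp14, Rpp25, Pop4, Pop5 and Pop7 had log2 changes between -0.50 and 0.09 in TT-seq and none was called.

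**Figure D3:**
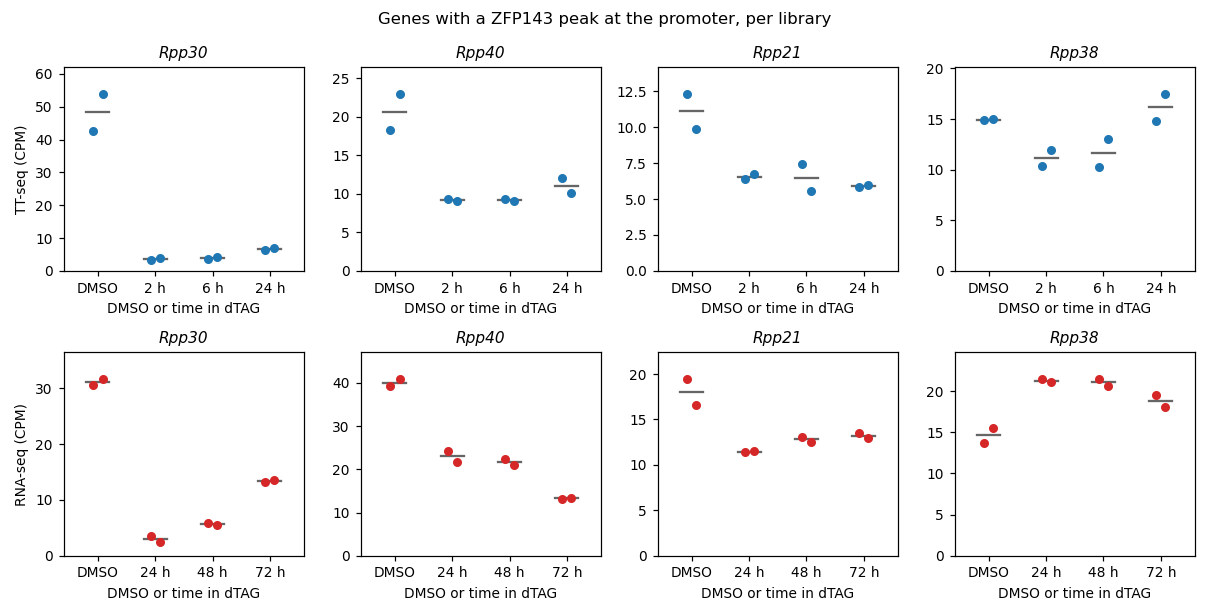
Level (CPM) of Rpp30, Rpp40, Rpp21 and Rpp38, the genes with a ZFP143 peak, in each library of TT-seq and the RNA-seq time course, with points for single libraries and short bars for the means of 2. Rpp30 reads 42.6 and 53.9 CPM in DMSO and 3.43 and 3.92 CPM at 2 h of TT-seq, and the dTAG points of Rpp38 lie above its DMSO points in RNA-seq without passing the test.

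In the RNA-seq time course, Rpp30 read 30.7 and 31.7 CPM in DMSO, 3.47 and 2.55 CPM at 24 h, 5.84 and 5.52 CPM at 48 h and 13.1 and 13.5 CPM at 72 h. The level was thus lowest at 24 h and higher in each later group, with no overlap between groups, and the log2 changes against DMSO were -3.36, -2.45 and -1.23. Beside Rpp30, 0 of the other 9 genes were called at 24 h, and 2 of the 9, Rpp40 and Rpp25, were called lower at 48 h and at 72 h. In this table a call is an adjusted p under 0.01 in edgeR's test against a fold change of 1.5. Over the 13925 tested genes, 3.41%, 7.71% and 12.0% were lower after 24, 48 and 72 h, and 2.32%, 10.5% and 13.7% were higher, so that 2 of 9 at 72 h stands beside a background of 12.0%. None of the 10 genes was called higher, by edgeR or DESeq2. At an unadjusted edgeR p under 0.05, 1 of the 9 was lower at 24 h, 2 were at 48 h and 72 h, and 0 were higher. With library size alone, which shifted the median of all tested genes by 0.13 to 0.21, 385 genes were lower and 495 higher after 24 h (475 and 323 with TMM scaling), 698 and 2047 after 48 h (1073 and 1456), and 1109 and 2736 after 72 h (1677 and 1912).

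Rpp40 read 39.2 and 40.9 CPM in DMSO, 24.3 and 21.8 CPM at 24 h, 22.5 and 21.1 CPM at 48 h and 13.1 and 13.4 CPM at 72 h. Unlike Rpp30 its lowest group was that of 72 h. Its log2 change was -0.80 ± 0.09 at 24 h (edgeR adjusted p = 0.0338, not called), -0.88 ± 0.09 at 48 h (adjusted p = 0.00143) and -1.60 ± 0.09 at 72 h (adjusted p = 3.2e-11). With the thresholds used for TT-seq it was called lower at 24 h as well. The 48 h call was lost without DMSO replicate 2 or 48 h replicate 2 (adjusted p up to 0.0244).

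Rpp25 read 135 and 131 CPM in DMSO, 109 and 113 CPM at 24 h, 81.5 and 75.3 CPM at 48 h and 75.4 and 76.9 CPM at 72 h. It was not called at 24 h, and its log2 change was -0.76 ± 0.05 at 48 h (edgeR adjusted p = 0.00187) and -0.80 ± 0.05 at 72 h (adjusted p = 0.000159). The 48 h call was lost without DMSO replicate 1 (adjusted p = 0.0124) or 48 h replicate 2 (adjusted p = 0.0612). Scaling to library size alone and the DESeq2 Wald test each ended the calls of Rpp25 at both times and that of Rpp40 at 48 h, and a stricter filter on counts ended that of Rpp25 at 48 h. Of the calls beside Rpp30 in this table, that of Rpp40 at 72 h was the 1 kept under each alternative run. Summed pluripotency markers were lower over the same libraries, at 4780 to 4840 CPM at 48 h, and 3 of the 9 were called lower at 48 and 72 h. Of the 4 tested RA response genes 2 were called higher at 24 h already. At both later times 2 of the 3 tested primitive endoderm markers, 2 of the 4 tested RA response genes and 1 of the 2 tested fibroblast markers were called higher. Their part in these changes was not tested.

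Rpp38 read 13.7 and 15.5 CPM in DMSO, 21.5 and 21.1 CPM at 24 h, 21.4 and 20.7 CPM at 48 h and 19.5 and 18.1 CPM at 72 h. All 6 treated libraries were above both DMSO libraries, with log2 changes of 0.53 ± 0.11, 0.52 ± 0.11 and 0.35 ± 0.11, but it did not pass the test against a fold of 1.5 (edgeR adjusted p = 1 at each time). Its log2 changes lay under that fold, and with the thresholds used for TT-seq it was called higher at 24 and 48 h. Rpp21 read 19.5 and 16.6 CPM in DMSO, 11.5 and 11.5 CPM at 24 h and 13.5 and 13.0 CPM at 72 h, below DMSO and not called. With the TT-seq thresholds Rpp21 was called lower at 24 h. Pop1, lower in nascent RNA, read 88.8 and 90.7 CPM in DMSO, 76.8 and 74.4 CPM at 24 h and 61.4 and 62.6 CPM at 72 h, with log2 changes of -0.25 to -0.53 that did not pass against the fold of 1.5, though with the TT-seq thresholds it was called lower at 72 h. The other genes Rpp14, Pop4, Pop5 and Pop7 had log2 changes between -0.49 and 0.24.

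**Figure D4:**
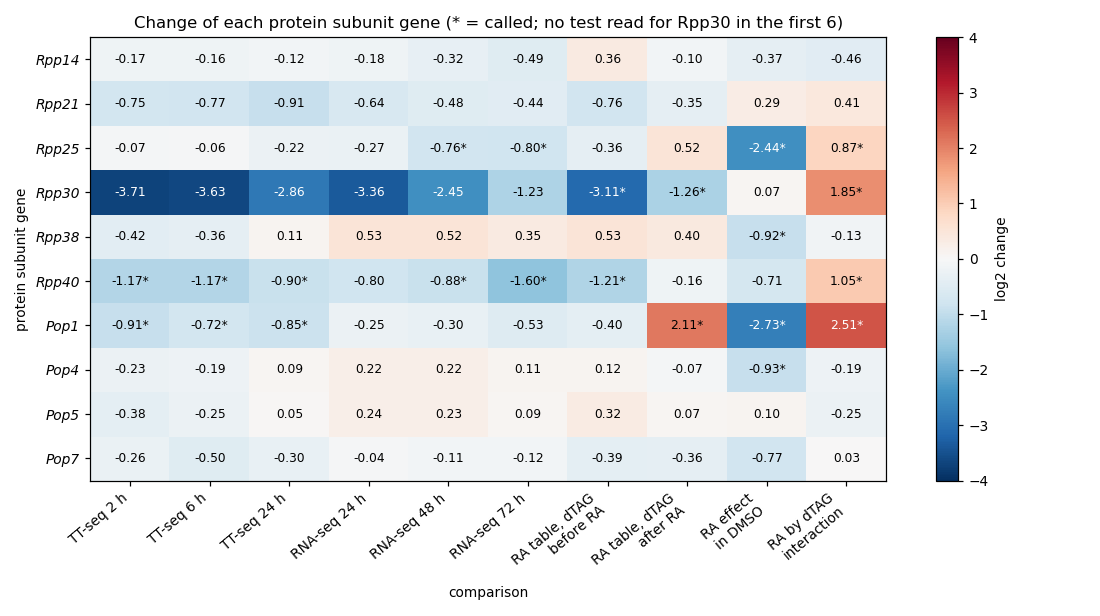
Log2 change of each of the 10 genes (rows) in each contrast (columns), with the value printed and an asterisk where it was called. Rpp30 carries no asterisk in the 6 TT-seq and RNA-seq time course columns because it was chosen from those libraries and no test is read there, and its values run from -3.71 to -1.23.

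The RA experiment used libraries other than those in which Rpp30 had been picked out, but the genes were listed with earlier results of all 3 tables known, so the p-values of Rpp30 below may not be independent of its choice. Before RA, after 24 h of dTAG, Rpp30 read 33.4 and 34.0 CPM in DMSO and 4.05 and 3.79 CPM in dTAG, and it was called lower with a log2 change of -3.11 ± 0.12 (edgeR adjusted p = 1.59e-13). Rpp40 read 39.1 and 44.5 CPM against 18.5 and 17.6 CPM and was called lower with a log2 change of -1.21 ± 0.11 (edgeR adjusted p = 4.79e-05). No other of the 10 genes was called in either direction, where 3.66% of 15915 tested genes were lower and 2.74% higher. Rpp21 read 20.9 and 21.9 CPM against 12.3 and 13.0 CPM, without overlap and not called (log2 change -0.76 ± 0.12, edgeR adjusted p = 0.195). Rpp38 was again above DMSO, at 24.5 and 22.7 CPM against 16.1 and 16.6 CPM, and again not called against the fold of 1.5. With the TT-seq thresholds Rpp21 was called lower and Rpp38 higher. Of the 7 RA response genes 1 was called higher in the same contrast, and its part was not tested.

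Without depletion, Pop1 and Rpp25 were much lower in DMSO RA than in DMSO, groups that also differ in medium and hours of culture. Pop1 read 114 and 111 CPM in DMSO and 15.3 and 19.0 CPM in DMSO RA, a log2 change of -2.73 ± 0.09 (edgeR adjusted p = 3.89e-15). Rpp25 read 205 and 229 CPM against 47.5 and 31.4 CPM, a log2 change of -2.44 ± 0.12 (edgeR adjusted p = 1.43e-12). Pop4 and Rpp38 were also called lower, with log2 changes of -0.93 ± 0.08 (edgeR adjusted p = 0.000131) and -0.92 ± 0.12 (adjusted p = 0.00372). The Rpp38 call was lost without DMSO replicate 2 or either DMSO RA library (adjusted p up to 0.0512), and both calls were lost with library size alone. The DESeq2 Wald test and a stricter filter also ended the Rpp38 call. Thus 4 of the 10 genes were lower, where 18.1% of tested genes were lower and 25.8% higher, and none was higher. With library size alone, which shifted the median of all tested genes by 0.32, 1710 genes were lower and 5164 higher, beside 2877 and 4113, and after 24 h of dTAG before RA 481 and 626, beside 583 and 436. Rpp30 read 35.5 and 35.5 CPM in DMSO RA, with a log2 change of 0.07 ± 0.09, and Pop5 had a log2 change of 0.10 ± 0.10. Over these libraries 8 of the 9 pluripotency markers were called lower, and 7 of 7 RA response genes, 5 of 5 primitive endoderm markers and 2 of the 3 tested fibroblast markers higher. Their part in the changes was not tested.

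After RA, dTAG libraries were compared with DMSO libraries that had both had RA. Rpp30 read 15.4 and 14.4 CPM in dTAG RA against 35.5 and 35.5 CPM in DMSO RA, and was called lower with a log2 change of -1.26 ± 0.10 (edgeR adjusted p = 1.92e-06). Pop1 went the other way, at 72.8 and 73.0 CPM against 15.3 and 19.0 CPM, a log2 change of 2.11 ± 0.09 (edgeR adjusted p = 5.62e-12). These were the 1 gene called lower, where 7.36% of tested genes were, and the 1 called higher, where 9.10% were. With library size alone 762 genes were lower and 2089 higher, beside 1171 and 1449. Rpp40 read 22.3 and 23.3 CPM against 28.6 and 22.0 CPM, so its groups overlapped. Of the 9 pluripotency markers, 4 were called higher and 1 lower in the same contrast, and 5 of the 7 RA response genes were called lower. Of the primitive endoderm markers 1 was called lower and 1 higher, and 2 of the 3 tested fibroblast markers were called higher. Their part in the Pop1 difference was not tested.

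The difference between the RA effects was tested as an interaction, RA effect under dTAG less the RA effect under DMSO, called at an edgeR adjusted p under 0.05 with a log2 value beyond 0.5. Of the 10 genes 4 were called higher, Pop1 at 2.51 ± 0.12 (edgeR adjusted p = 7.71e-12), Rpp30 at 1.85 ± 0.16 (adjusted p = 1.5e-08), Rpp40 at 1.05 ± 0.16 (adjusted p = 2.63e-05) and Rpp25 at 0.87 ± 0.16 (adjusted p = 0.000165). Against a fold of 1.5 at an adjusted p under 0.01, as in the other contrasts of this table, Pop1 and Rpp30 were called and Rpp40 and Rpp25 were not. None was called lower, and at an unadjusted p under 0.05 Rpp14 alone was. Over all tested genes 13.7% were called higher and 18.0% lower. In levels, Pop1 went from 85.1 and 84.7 CPM in dTAG to 72.8 and 73.0 CPM in dTAG RA, Rpp30 from 4.05 and 3.79 CPM to 15.4 and 14.4 CPM, Rpp40 from 18.5 and 17.6 CPM to 22.3 and 23.3 CPM, and Rpp25 from 168 and 170 CPM to 59.7 and 54.9 CPM. Rpp14 read 32.4 and 26.0 CPM in DMSO, 22.2 and 23.1 CPM in DMSO RA, 40.1 and 34.8 CPM in dTAG and 20.8 and 21.3 CPM in dTAG RA. Its interaction was -0.46 ± 0.16 (edgeR adjusted p = 0.0226), under the size required, and it was called without DMSO replicate 1 (-0.63) or dTAG replicate 2 (-0.57). Rpp21, at 0.41 ± 0.16 (edgeR adjusted p = 0.0521), was called without DMSO RA replicate 1 or dTAG RA replicate 2 (0.57 in both). In the same contrast 7 of the 9 pluripotency markers were called higher and 1 lower, 4 of the 7 RA response genes and 2 of the 5 primitive endoderm markers were called lower, and 1 fibroblast marker was called higher. Their part in these values was not tested.

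**Figure D5:**
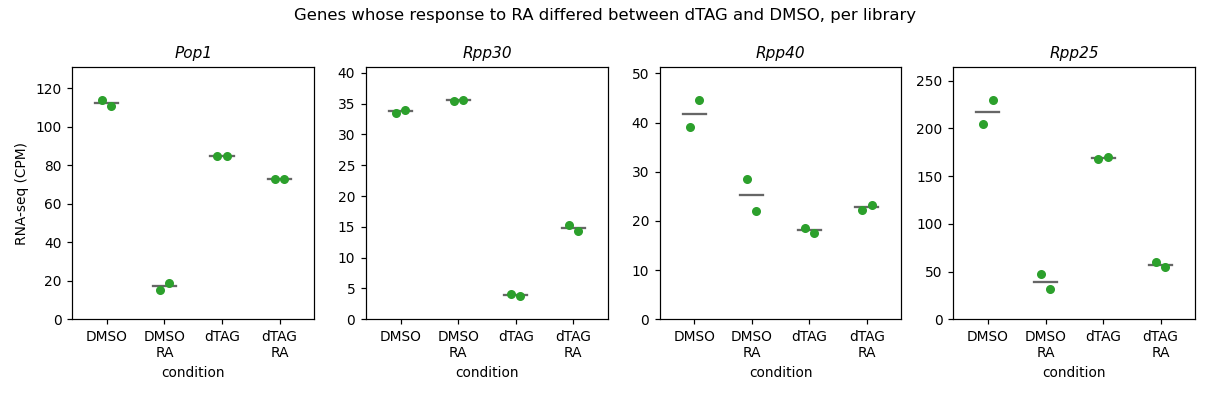
Level (CPM) of the 4 genes called in the interaction, Pop1, Rpp30, Rpp40 and Rpp25, in each of the 8 libraries of the RA table, with points for libraries and short bars for group means in the groups DMSO, DMSO RA, dTAG and dTAG RA. Pop1 sits at 15.3 and 19.0 CPM in DMSO RA and near 73.0 CPM in dTAG RA.

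The genes of the RNA subunits could be read in TT-seq only. Rpph1 read 206 and 115 CPM in DMSO, 154 and 115 CPM at 2 h and 105 and 73.1 CPM at 24 h, with a log2 change of -0.85 ± 0.29 at 24 h (edgeR adjusted p = 0.133, not called). Rmrp read 335 and 173 CPM in DMSO and 187 and 145 CPM at 24 h, where it was not called either. In all 16 RNA-seq libraries, prepared from polyadenylated RNA, both were listed at a count of 0. Rpph1 shares 284 of its 319 bp with Ccnb1ip1 on the same strand and Rmrp 164 of its 281 bp with Ccdc107 on the opposite strand, and reads over such stretches may have gone uncounted, so the 0 sets no limit on either RNA. A ZFP143 peak of 38.0-fold, rank 970, had its summit 85 bp upstream of Rpph1, at the first exon of Parp2, and held a core with 1 mismatch 77 bp upstream, on the opposite strand. Its 30 bases, chr14:50807830-50807859, are shown on the minus strand with that stretch in capitals, since no full form of the motif was found there. A core with 1 mismatch occurred around 65.2% of all peak summits and in 23.9% of promoters.
Rpph1: tacgcgctgtGCTTTGTGGGaaatcaccct

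Ccnb1ip1, a gene with a role in meiosis whose first part overlaps Rpph1 on the same strand, was lower in TT-seq with log2 changes of -0.85 ± 0.14 at 6 h (edgeR adjusted p = 0.0125) and -1.24 ± 0.14 at 24 h (adjusted p = 0.00194), and in RNA-seq with -0.83, -1.16 and -1.28 at 24, 48 and 72 h. Reads over their shared 284 bp cannot be told apart, so the TT-seq values of both Rpph1 and Ccnb1ip1 are uncertain. Parp2, which starts at the same peak on the other strand and encodes a DNA repair enzyme, was called in none of the contrasts. Rpp25l, a paralog of Rpp25, was called only in the RA effect in DMSO, with a log2 change of -1.05 ± 0.11 (edgeR adjusted p = 7.47e-05). Pop7 lies wholly within Epo on the same strand, so their reads may be shared. Pop5 overlaps Rnf10 on the opposite strand over 3940 bp. TT-seq reads were counted by strand, so this overlap bears on the RNA-seq counts, whose strand column is not given.

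Genes of the wider pathway were read against the shares of all tested genes given for each contrast. Of 16 genes for precursor tRNA ends, splicing and ligation, all tested, none was called at 2 or 6 h of TT-seq or at 24 h of RNA-seq, where 2.43%, 2.83% and 3.41% of all tested genes were lower. Ssb, the La protein that binds new RNA polymerase III transcripts, was lower at 24 h of TT-seq (log2 change -0.82), at 48 h (-0.84) and 72 h (-0.95) of RNA-seq and in dTAG before RA (-0.91). At 24 h of TT-seq, 48 h of RNA-seq and before RA, Ssb was the 1 gene called. Of all tested genes 4.09%, 7.71% and 3.66% were lower there. Tsen34, a subunit of the tRNA splicing endonuclease, joined at 72 h with -1.05 (edgeR adjusted p = 3.87e-08). That made 2 of the 16, beside 12.0% of all tested genes. Larp7, a La-related protein that binds 7SK RNA, was the 1 gene called lower after RA with -0.83, beside 7.36%. The list's median at 72 h was -0.17, beside 0.02 over all tested genes. With RA in DMSO 5 of the 16 were lower, Clp1 most with -1.20, and 1 was higher, Elac1, which trims tRNA 3′ ends, with 1.66, beside 18.1% lower and 25.8% higher over all tested genes. In the interaction 3 were called lower, Elac1 most with -0.63, and 1 higher, Clp1 with 0.76, beside 18.0% lower and 13.7% higher.

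Of the 3 subunits of mitochondrial RNase P, which is a protein enzyme without RNA, Hsd17b10 was called lower at 72 h with a log2 change of -0.90 (edgeR adjusted p = 5.74e-06). Trmt10c (-1.01) and the gene for Prorp (-0.86) were called lower in DMSO RA against DMSO. Of 30 genes for precursor rRNA processing, 1 was called lower at 24 h of TT-seq, Nop56 of the box C/D complex with -0.68, beside 4.09% of all tested genes. At 48 h of RNA-seq 1 was called lower, Nop10 of the box H/ACA complex with -0.95, beside 7.71%. At 72 h 5 were, Npm1 with -0.92, Nop10 with -0.87, Rcl1 and Nhp2 with -0.74 each and Nop56 with -0.71, beside 12.0% of all tested genes. The list's median at 72 h was -0.30. With RA in DMSO 27 of the 30 were lower, beside 18.1% of all tested genes, Heatr1 most with -2.01 (edgeR adjusted p = 6.85e-14), 1 was higher, Dkc1 with 0.78, and the median was -1.21, beside 0.03. After RA 3 were lower in dTAG than in DMSO, Nop56 with -1.04, Nhp2 with -1.03 and Nop10 with -1.02, beside 7.36% of all tested genes. In the interaction 3 were called lower, Nop56 most with -0.90, and 2 higher, Utp20 most with 0.89, beside 18.0% lower and 13.7% higher over all tested genes. These lists were named with earlier results of these data known.

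Over the 24 libraries, with each table centred on its own mean of log2(CPM + 1), Gtpbp8 was most like Rpp30 among 11959 protein-coding genes (r = 0.98), followed by Unk and Sdccag8 (r = 0.97 each). All 3 had a ZFP143 peak at the promoter. They share libraries and treatment groups with Rpp30, and the correlation over these 24 points is a description. Their log2 changes at 2 h of TT-seq were -2.16, -2.74 and -3.20, and at 72 h of RNA-seq -1.01, -1.22 and -1.41. Of the 9 other subunit genes, Rpp21 came nearest (r = 0.88, rank 120), then Rpp40 (r = 0.70, rank 477), and the other 7 had r of -0.37 to 0.19.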

How the data were processed

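The authors deposited counts of reads per gene for TT-seq and both RNA-seq experiments. Per their methods, reads were aligned with STAR to mm10 with GENCODE annotation. TT-seq reads were deduplicated with Picard, split by strand and counted over whole genes with HTSeq. RNA-seq reads were counted by STAR. The strand column used for RNA-seq is not given in the sources used here. The deposited ZFP143 peak list gives a fold enrichment over input and a −log10 q-value per peak. The CTCF list, which the authors pooled from DMSO and dTAG cells, gives positions alone.

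Counts were used as deposited, with R 4.3.3, edgeR 4.0.16, limma 3.58.1, DESeq2 1.42.0 and Python 3.11.15. Genes were kept where 4 or more of 8 libraries exceeded 10 counts, and were fitted as 4 groups of 2 libraries per table, with TMM scaling and quasi-likelihood tests; p-values were adjusted over every tested gene. Alternatives were the thresholds of the other assay, DESeq2 size factors, library size alone, no filter or a minimum of 50 counts, the replicate block, the DESeq2 Wald test and each library left out. Scripts were tested on simulated data. In TT-seq same-numbered libraries deviated together (correlations 0.19 to 0.63 in 6 of 6 pairs of groups), so the replicate number was also used as a block. The named genes were the members, Zfp143, both RNA subunits, Rpp25l, the extremes of each pathway list, neighbours at member peaks and the 3 genes most like Rpp30; other genes of a list of 5 or fewer calls were named after their values were seen. The members and lists were chosen with earlier results of these data known. No 2 libraries were identical, and no columns were left unmapped.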

Additional observations from a re-analysis of the deposited data

Results flagged for a closer look

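The RA effect differed between dTAG and DMSO cells, by the test of the interaction itself, for 4 of the 10 genes. All 4 were called higher, beside 13.7% of all tested genes called higher and 18.0% called lower. The difference on the log2 scale, dTAG minus DMSO, was 2.51 for Pop1, 1.85 for Rpp30, 1.05 for Rpp40 and 0.87 for Rpp25. Against a fold of 1.5 at an adjusted p under 0.01 in edgeR, the calls of Rpp40 and Rpp25 ended. For Rpp30 the level in DMSO cells was 33.4 and 34.0 CPM without and 35.5 and 35.5 CPM with RA, and it was higher with RA in dTAG cells (4.05 and 3.79 against 15.4 and 14.4 CPM). For Pop1 the level with RA was far lower in DMSO cells (114 and 111 against 15.3 and 19.0 CPM) and little lower in dTAG cells (85.1 and 84.7 against 72.8 and 73.0 CPM). The dTAG libraries with RA had 48 h of depletion and those without had 24 h. Length of depletion and RA therefore cannot be told apart within the dTAG cells of this experiment. In DMSO and dTAG cells alike, the RA groups also differed in medium and hours of culture, from which RA cannot be told apart.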

How the results depend on the processing

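In the RA table Rpp30 kept its direction and its side of the threshold under all alternatives run, and its log2 change ran from -3.87 to -3.51 at 2 h of TT-seq and from -1.26 to -1.01 at 72 h of RNA-seq over the alternatives; the cause of the changes below was not tested. The counts below for TT-seq and the RNA-seq time course include Rpp30, whose place in them was fixed by its choice from these libraries and supports nothing. With the thresholds of the other assay, the count in TT-seq at 2, 6 and 24 h was 1 with Rpp30 and 0 without it, so that Rpp40 and Pop1 were both lost. There were 3 lower (Rpp21 and Rpp40 beside Rpp30) and 1 higher (Rpp38) at 24 h of RNA-seq, 1 higher at 48 h and 1 before RA (Rpp38 in both), 2 higher after RA (Pop1 and Rpp25) and 2 higher in the interaction, where Rpp25 and Rpp40 were lost. Further genes gained as lower were Pop1 at 72 h of RNA-seq, Rpp21 before RA, and Rpp40 and Pop7 for RA in DMSO. At 48 h of RNA-seq the count of lower genes with library size alone and with the DESeq2 Wald test was 1 with Rpp30 and 0 without it, so that Rpp25 and Rpp40 were both lost. With library size alone 2 genes were lower in DMSO RA against DMSO, and with no filter 1 was lower in the interaction. Leaving out 1 library gave 1 to 3 genes called lower in TT-seq at 2 and 6 h, 1 to 2 at 24 h, 1 to 3 at 48 h of RNA-seq and 0 to 1 in the interaction. Without Rpp30 these were 0 to 2 at 2 and 6 h, 0 to 1 at 24 h and 0 to 2 at 48 h. Values that changed sign were those of genes not called. With library size alone Pop7 read 0.09, 0.09 and 0.10 in RNA-seq at 24, 48 and 72 h, and after RA Rpp14 read 0.11, Rpp40 0.05 and Pop4 0.14, while with no filter the Pop7 interaction read -0.03. Over left-out libraries the ranges were -0.35 to 0.04 (Rpp14), -0.20 to 0.08 (Rpp25) and -0.59 to 0.17 (Pop7) at 2 h of TT-seq, -0.34 to 0.05 (Rpp14), -0.19 to 0.09 (Rpp25) and -0.55 to 0.01 (Pop5) at 6 h, and -0.29 to 0.10 (Rpp14), -0.09 to 0.18 (Pop5) and -0.64 to 0.13 (Pop7) at 24 h. They were -0.24 to 0.24, -0.31 to 0.17 and -0.32 to 0.16 for Pop7 in RNA-seq at 24, 48 and 72 h, -0.31 to 0.06 (Rpp40) and -0.01 to 0.20 (Pop5) after RA, and -0.13 to 0.17 for Pop7 in the interaction. Over all genes, the replicate block called 662 lower and 87 higher at 2 h of TT-seq (435 and 30 without it), 956 and 359 at 6 h (506 and 71) and 1214 and 1009 at 24 h (730 and 361). No filter gave 774 and 162, 980 and 338, and 1178 and 1025, and the thresholds of the other assay 70 and 5, 84 and 4, and 116 and 12, in time order. In RNA-seq those thresholds gave 1187 and 1591, 2352 and 2944, and 3066 and 3398, and the DESeq2 Wald test 335 and 102, 729 and 780, and 1156 and 1123. In the RA table they gave 1342 and 2302 for dTAG against DMSO without RA (583 and 436 in the report), 2966 and 3333 with RA (1171 and 1449), 4508 and 5460 for the RA effect (2877 and 4113) and, as an interaction, 700 and 713 (2863 and 2186), the Wald test 474 and 143 without and 765 and 789 with RA, and a stricter filter 958 and 948 with RA. The Wald test gave 488 and 52 at 2 h and 608 and 157 at 6 h of TT-seq. The replicate block changed no call of the 10 genes other than that of Rpp21 at 24 h of TT-seq. In RNA-seq (correlations -0.04 to 0.06) and the RA table (-0.10 to 0.13) the libraries share only a number. Among the genes other than Rpp30 the fewest reads behind a value were 59, for Rpp21 at 24 h of TT-seq. Values of Rpp30 rested on as few as 43 and 28 reads at 24 h of RNA-seq and 43 and 65 reads at 2 h of TT-seq.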
